A study of Mus musculus with 8 samples.

Results

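The piRNA clusters named by chromosome band are loci whose names join a chromosome, a cytogenetic band and a number, such as 18-qE1-36451, in place of a gene name. They were taken as every piRNA cluster in the deposited count table whose name did not start with "pi-", with the transcript of the largest total standing for each cluster. This gave 94 clusters out of 172 piRNA clusters in all and 45090 features of all RNA classes; the other 78 clusters carry the name of a gene. The samples were mouse sperm from a study of alcohol cessation, profiled by small RNA sequencing, with 4 libraries of ethanol-treated males and 4 libraries of control males. All 8 libraries were made alike from Trizol-extracted RNA with Qiaseq reagents. The strain, the age, the dose and length of ethanol exposure, the cells used and whether each library was 1 animal are not given in the sources used here. The p-values therefore measure the spread between these libraries.

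piRNAs are small RNAs of germ cells that guide PIWI proteins to matching transcripts and help silence transposons. In the mouse testis most of them are cut from long, single-stranded transcripts of discrete loci, the piRNA clusters, which the transcription factor MYBL1 switches on at the pachytene stage of meiosis. Many clusters are transcribed in both directions from a shared promoter, and piRNAs in mature sperm are left from these earlier stages. Clusters in the bands 6-qF3 and 18-qE1 hold loci that mouse deletion studies link to normal sperm function. The question put to the data was whether the rank of the clusters, their concentration and their spread between libraries differed between ethanol and control. Values are given as CPM, that is counts relative to library size after a correction for composition (TMM, the trimmed mean of M-values), or as percent of the counts summed over the 94 clusters. No sequences are shown. Counts were not divided by length, since the table gives no cluster lengths, so ranks are ranks of counts and say nothing of level per base.

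The libraries differed in ways other than piRNA. Summed feature counts were 3353679 to 6314205 in ethanol and 4173236 to 4543220 in control. Exons of mRNAs took 7.77% to 30.4% of ethanol libraries, the highest being ethanol 2, and 5.47% to 6.08% of control libraries. miRNAs took 6.47% to 11.1% of ethanol libraries and 17.6% to 28.0% of control libraries. All 12 listed spermatid and sperm markers were detected well enough to test. Of these 0 passed in either direction by edgeR's quasi-likelihood test, which called 13.6% of all tested features, so 0 of 12 says little. Every estimate was negative, with a median log2 fold change of -0.53. At an unadjusted p under 0.05 there were 2, and 2 passed in DESeq2 and 0 in limma-voom. Summed CPM of these markers was 238 to 665 in ethanol and 618 to 781 in control. Of 11 epididymal epithelium markers 9 were in the table and 2 were tested, and both were higher in ethanol by edgeR's quasi-likelihood test. Crisp1, a secreted epididymal protein that coats sperm, had a log2 fold change of 2.83 ± 0.71 (adjusted p = 0.0292) and Adam7, an epididymal membrane protein, one of 5.09 ± 1.44 (adjusted p = 0.0431); DESeq2 called 1 of them and limma-voom 0. Adam7 had 57.7, 1468, 38.1 and 24.9 CPM in ethanol 1 to 4 and 29.2, 4.298, 10.01 and 2.99 CPM in control 1 to 4, so ethanol 2 stood far above the rest and the groups overlapped. The summed CPM of that list was 804 to 10887 in ethanol, highest in ethanol 2, and 373 to 624 in control, while its lipocalins Lcn5, Lcn8 and Lcn9 stayed near 0. Markers of Sertoli and Leydig cells summed to 1.69 to 4.61 CPM in ethanol and 3.84 to 11.2 CPM in control, with 0 of 6 detected well enough to test. Of 8 meiotic germ cell markers 3 were tested and 0 passed by edgeR's quasi-likelihood test. They summed to 5.35 to 24.9 CPM in ethanol and 11.3 to 19.3 CPM in control. Of 8 blood and immune markers 3 were tested. Cd52, which epididymal epithelium also makes, rose (log2 fold change 3.67) and Hba-a1, a haemoglobin chain, fell (-2.02). Both had an adjusted p of 0.0287 by edgeR's quasi-likelihood test. The other, Hbb-bs, was at -1.55 and did not pass (adjusted p = 0.0919, same test). DESeq2 called 2 of the 3 and limma-voom 0. The part of these differences in the results below was not tested beyond the comparisons given there.

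The counts were unevenly spread over the clusters, and the order was nearly the same in every library. The cluster with the most counts, 18-qE1-36451, held 9.42%, 9.18%, 9.07% and 9.10% of the band-named counts in ethanol 1 to 4 and 9.36%, 9.37%, 8.96% and 8.99% in control 1 to 4. Its share averaged 9.19% ± 0.158 in ethanol and 9.17% ± 0.224 in control (SD, n = 4 each). The groups overlapped, and libraries 1 of ethanol and 1 and 2 of control lay highest. It was followed by 9-qC-31469, 17-qA3.3-27363, 6-qF3-28913, 9-qA5.3-24188, 2-qE1-35981, 4-qC5-17839, 9-qC-10667, 12-qE-23911 and 7-qD1-19431. Places 1, 2, 3, 6 and 7 went to the same cluster in all 8 libraries, and 6-qF3-28913 and 9-qA5.3-24188 exchanged places 4 and 5. In every library 9 clusters gave 50% of the band-named counts and 36 gave 90%. At the other end 29 clusters held under 0.1% of the counts each, against 25 that held more than 1%.

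The ethanol and control ranges overlapped for each measure of concentration computed. The 5 largest clusters together held 35.97% ± 0.135 of the band-named counts in ethanol and 36.02% ± 0.130 in control (SD, n = 4 each). The 10 largest held 54.4% ± 0.294 in ethanol and 54.3% ± 0.355 in control, and the 20 largest 75.3% ± 0.187 in ethanol and 75.1% ± 0.263 in control. The effective number of clusters is the inverse Simpson index, the number of equally large clusters that would be as concentrated. It was 24.6, 25.07, 25.01 and 24.97 in ethanol 1 to 4 and 24.85, 24.84, 25.05 and 25.07 in control 1 to 4, with overlapping groups. Across the 94 clusters, Spearman's rank correlation of the counts lay between 0.996 and 0.999 for all pairs of libraries. Such a correlation is over clusters that share their annotation and their counting, and it is given as a description.

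**Figure D1:**
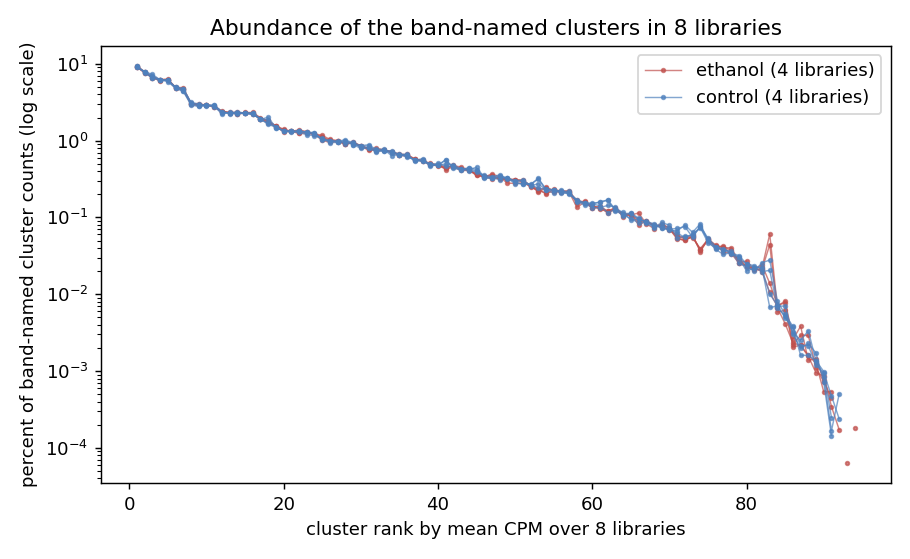
Percent of the band-named cluster counts (log scale) held by each cluster against its rank by mean CPM over all 8 libraries; each line is 1 library, red for ethanol and blue for control, and counts of 0 are not drawn. The 8 lines lie close together down to about 0.1% of the counts; below that they part at rank 74, 19-qC2-1361, where the ethanol lines are lower, at rank 83, 7-qD2-40, and among the last clusters, which have few counts.

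The bands with the most counts held similar shares in ethanol and control. The clusters lay in 51 bands of 18 chromosomes, and 24 bands held at least 2 tested clusters. Band 9-qC held the most counts, 10.7% ± 0.114 of the band-named total in ethanol and 10.8% ± 0.0691 in control (SD, n = 4 each). It was followed by 18-qE1 with 9.33% ± 0.157 in ethanol and 9.32% ± 0.212 in control, and by 6-qF3 with 8.90% ± 0.0885 in ethanol and 8.91% ± 0.0501 in control. Band 17-qA3.3 held 8.55% ± 0.164 in ethanol and 8.77% ± 0.548 in control, with the highest value, 9.47%, in control 3. All 4 bands overlapped between the groups.

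Within 9-qC, the counts of 9-qC-31469 were 2.56 ± 0.0448 times those of 9-qC-10667 in ethanol and 2.57 ± 0.131 times in control. In 6-qF3, 6-qF3-28913 had 2.69 ± 0.0557 times the counts of 6-qF3-8009 in ethanol and 2.71 ± 0.0205 times in control, and 6-qF3-3040 was the smallest of the band at 0.468% of the band-named counts in ethanol and 0.459% in control. In 17-qA3.3, 17-qA3.3-27363 had 3.80 ± 0.135 times the counts of 17-qA3.3-26735 in ethanol and 3.82 ± 0.172 times in control. The ethanol and control ranges of each of these 3 ratios overlapped. In 18-qE1 nearly all counts came from 18-qE1-36451, and 18-qE1-1295 held 0.134% ± 0.00445 in ethanol and 0.148% ± 0.0122 in control.

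The clusters as a whole took 18.4%, 8.18%, 25.5% and 9.80% of the summed feature counts in ethanol 1 to 4 and 16.6%, 10.1%, 14.1% and 17.8% in control 1 to 4. The highest and the lowest share were both in ethanol, and the control values lay between them. The mean was 15.5% ± 8.05 in ethanol and 14.7% ± 3.43 in control (SD, n = 4 each), a difference of 0.803 percentage points, far under the spread. Counting error was small beside it, since the 95% Wilson interval of the library with the fewest counts, ethanol 2, ran from 8.15% to 8.21%. Fewer cells of a type and less RNA per cell cannot be told apart in bulk libraries such as these. Ethanol 2, with the lowest share, also had the highest mRNA exon share and 9412 CPM of Crisp1, and ethanol 4, the next lowest, had 55.5% of its counts in tRNA; their part in the share was not tested.

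**Figure D2:**
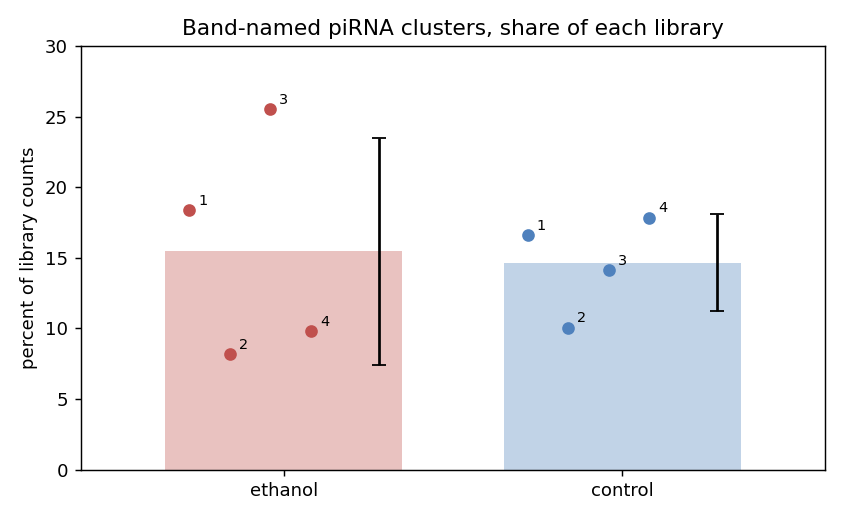
Percent of each library's feature counts that fell on the 94 band-named clusters; points are libraries with their replicate number, bars are means and black lines SDs over 4 libraries. Ethanol ran from 8.18% to 25.5% and control from 10.1% to 17.8%, so the control libraries lie inside the ethanol range.

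The band-named clusters made up nearly all piRNA cluster counts in every library, 98.5% to 98.7% in both groups. The mean was 98.6% ± 0.0843 in ethanol and 98.7% ± 0.0386 in control (SD, n = 4 each). The 78 gene-named clusters took the remainder, 0.124% to 0.337% of ethanol libraries and 0.140% to 0.233% of control libraries. Their order over libraries was that of the band-named clusters within each group, with ethanol 3 highest and ethanol 2 lowest in ethanol, and control 4 highest and control 2 lowest in control.

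Single clusters followed the library-wide level. 18-qE1-36451 had 15679, 5179, 26580 and 8579 CPM in ethanol 1 to 4 and 16731, 9949, 13048 and 19825 CPM in control 1 to 4. Ethanol 3 was above all controls and ethanol 2 and 4 below them. The means were 14004 ± 9457 CPM in ethanol and 14888 ± 4303 CPM in control, and the log2 fold change of ethanol over control was -0.09 ± 0.52 (SE; edgeR's quasi-likelihood test, Benjamini-Hochberg adjusted p = 0.925). The next largest, 9-qC-31469, averaged 11802 ± 8091 CPM in ethanol and 12723 ± 3938 CPM in control. Means over 4 libraries of the other 8 of the 10 largest ran from 4422 CPM (7-qD1-19431) to 10229 CPM (17-qA3.3-27363) in ethanol and from 4671 to 11147 CPM for the same clusters in control.

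Of the 94 clusters 88 passed the filter on low counts and 0 were called by edgeR's quasi-likelihood test at an adjusted p under 0.05, while 13.6% of all 13515 tested features were called. This background rested on the setting, since 1841 features were called over all libraries, 3, 3, 7 and 10 without control 1 to 4, 8 in limma-voom and 0 with libraries scaled by piRNA cluster counts. At an unadjusted p under 0.05 there was 1, 19-qC2-1361; DESeq2 called 1, the same cluster, and limma-voom 0. The estimates were negative for 85 clusters and positive for 3, with a median of -0.09, against -0.01 over all features tested. This sign rested on the scaling and on single libraries. With library totals in place of TMM the median of all features was 0.24, and 74 clusters were positive, 14 negative, with a median of 0.08. Relative to the median of all features, the clusters' median was -0.08 with TMM and -0.16 with library totals. Leaving out ethanol 3 put the clusters' median at -0.72, leaving out ethanol 2 at 0.12, leaving out ethanol 4 at 0.04 and leaving out control 4 at 0.01. Against ethanol 1 and 2 alone it was -0.67 and against ethanol 3 and 4 alone, whose sample codes have another style, 0.19. Standard errors of the 88 clusters were 0.41 to 0.54 on the log2 scale, so changes of that size and larger could go undetected. The estimate of 19-qC2-1361, -1.15 ± 0.49, did not pass.

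The CPM ranges of ethanol and control overlapped for all 88 tested clusters, whereas they did not overlap for 21.3% of all tested features. The clusters moved together from library to library. The median deviation of the tested clusters from their own mean log2 CPM was 0.23, -1.31, 1.05 and -0.58 in ethanol 1 to 4 and 0.34, -0.42, 0.05 and 0.65 in control 1 to 4. In ethanol 2 the lower and upper quartiles were -1.35 and -1.28, and in ethanol 3 they were 1.02 and 1.08, so nearly every cluster carried the same shift.

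**Figure D3:**
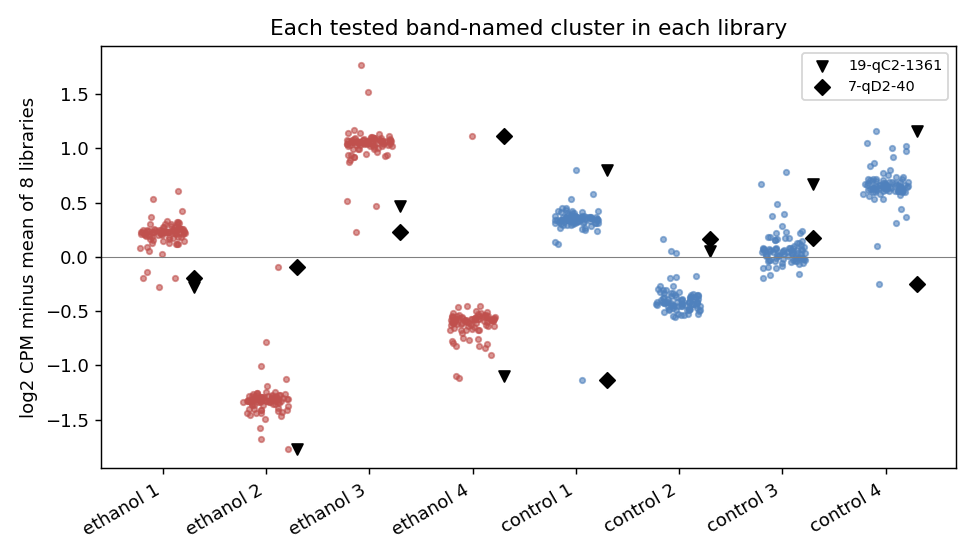
log2 CPM of each of the 88 tested clusters minus its mean over all 8 libraries, by library, ethanol in red and control in blue; the triangle and the diamond repeat the points of 19-qC2-1361 and 7-qD2-40. The points of a library form a narrow band, centred on -1.31 in ethanol 2 and on 1.05 in ethanol 3, and the 2 marked clusters leave it.

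This shared shift made up most of the distance between libraries. The median absolute log2 CPM difference over clusters was on average 1.32 for the 6 pairs of ethanol libraries (0.726 to 2.38) and 0.580 for the 6 pairs of control libraries (0.299 to 1.06). After each library's median log2 CPM over the tested clusters was subtracted, this difference was 0.0438 in ethanol (0.0419 to 0.0466) and 0.0829 in control (0.0520 to 0.103). For the 16 pairs between the groups it was 0.112. That median is set by the clusters at the middle of the order, near 10-qC1-875. This cluster held 0.355% of the band-named counts in ethanol 1 and 0.449% in control 2. A shift of such clusters moves the centre, so the centred distances do not measure composition alone. Ethanol libraries thus lay farther apart in level. Measures of composition did not all order the groups alike. The SD of the effective number of clusters was 0.196 in ethanol and 0.124 in control. The median SD of the log2 share, described below, was 0.0366 within ethanol and 0.0532 within control. Over all features the median absolute log2 CPM difference, not centred, was on average 0.713 in ethanol and 0.425 in control.

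Shares within the set varied little between libraries. The SD over 8 libraries of the log2 share of the band-named counts was under 0.1 for 67 of the 85 clusters with a mean of at least 50 counts and at least 0.3 for 3, with a median of 0.0517. The median was 0.0366 within ethanol and 0.0532 within control. For 14 gene-named clusters, also taken as shares of the band-named counts and not of their own class, the 8-library median was 0.167. As shares within their own class, it was 0.518 for 126 miRNAs, 0.514 for 56 tRNAs, 0.477 for 58 snoRNAs and 0.620 for 1787 mRNA exon features. Among features with a mean of at least 1000 counts, with the same denominators, the median was 0.0424 for 62 band-named clusters and 0.0544 for the 2 gene-named clusters that reached it. It was 0.409 for 46 miRNAs and 0.494 for 44 tRNAs. These medians are descriptions over features of the same libraries, and no test was made of their difference. The libraries were still not technical copies of each other, since chi-square per degree of freedom between pairs over the clusters was 2.02 to 15.1.

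In 1 cluster the ethanol shares lay far below the control shares. 19-qC2-1361, a small cluster of 3263 counts in all and rank 74, held 0.0375%, 0.0394%, 0.0358% and 0.0375% of the band-named counts in ethanol 1 to 4 and 0.0736%, 0.0741%, 0.0830% and 0.0767% in control 1 to 4. All 4 ethanol shares were below all 4 control shares, with a gap wider than the spread of either group. The means were 0.0375% ± 0.00146 in ethanol and 0.0768% ± 0.00431 in control (SD, n = 4 each). The interval of ethanol 2, which had the fewest counts of this cluster, 108, ran from 0.0326% to 0.0475% (95%, Wilson) and lay below every control share. The cluster was picked because its shares differed, so no separate test of the shares is given beyond the fit of piRNA clusters alone, below.

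In CPM, where the library-wide shift remains, 19-qC2-1361 had 62.5, 22.2, 104.8 and 35.3 in ethanol 1 to 4 and 131.6, 78.6, 120.8 and 169.2 in control 1 to 4. Ethanol 3 lay above control 2, so these groups overlapped. The log2 fold change was -1.15 ± 0.49 over all features and did not pass (edgeR's quasi-likelihood test, adjusted p = 0.121). Over its alternatives the adjusted p ran from 5.4e-07 to 0.247 and the log2 fold change from -1.74 to -0.89; it passed in 13 of 28, of which 9 fitted the piRNA clusters alone. In DESeq2 its adjusted p was 0.0465, and without ethanol 3 edgeR's adjusted p was 0.0139. With libraries scaled by their piRNA cluster counts and all features tested, it was -1.03 ± 0.38 with an adjusted p of 0.197.

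With the 110 piRNA clusters that passed the filter fitted alone, so that each was measured against the others, 1.82% were called by edgeR's quasi-likelihood test, and both calls were band-named. They were 19-qC2-1361 (log2 fold change -1.05 ± 0.05, adjusted p = 5.4e-07) and 10-qC1-875 (-0.20 ± 0.04, adjusted p = 0.0439). Of the band-named clusters 12 had an unadjusted p under 0.05. With each library left out in turn 19-qC2-1361 was called 8 of 8 times, with log2 fold changes of -1.07 to -1.002 and adjusted p of 2.31e-06 to 1.68e-05. This fit measures much the same thing as the shares described above, so its p-values are not separate support. The refits reuse the same libraries and were added after seeing the data, so they show only that no single library carried the call. 10-qC1-875 was called 2 of 8 times, with adjusted p of 0.00535 to 0.133. Its share was 0.355%, 0.365%, 0.352% and 0.372% in ethanol 1 to 4 and 0.394%, 0.449%, 0.420% and 0.399% in control 1 to 4, so the groups did not overlap but lay close. Over all features it had a log2 fold change of -0.29 ± 0.51 with an adjusted p of 0.711, and over the alternatives its adjusted p was 0.00535 to 0.992.

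**Figure D4:**
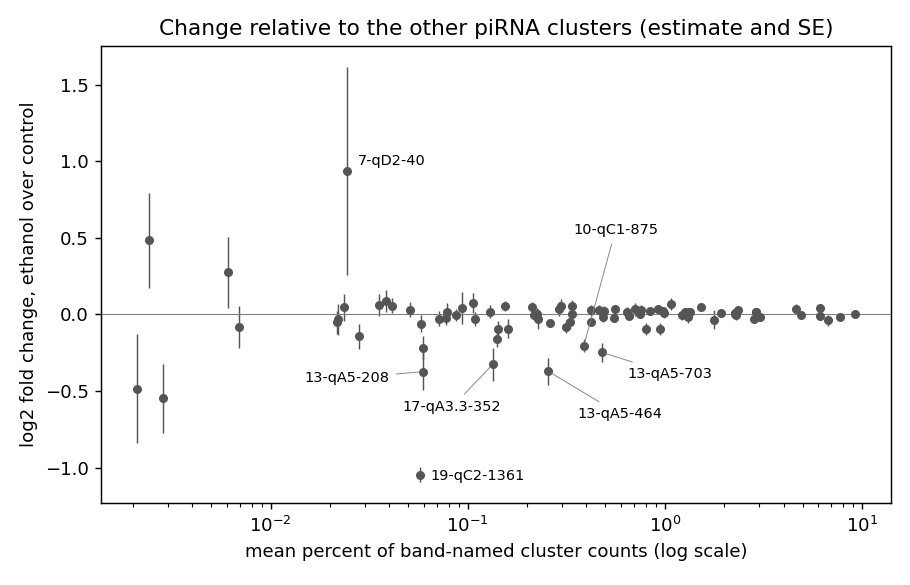
log2 fold change of ethanol over control, with its SE, of each tested band-named cluster in the fit of piRNA clusters alone, against its mean percent of the band-named counts (log scale). Clusters above about 1% lie close to 0, 19-qC2-1361 lies at -1.05 with a short error line, and 7-qD2-40 is high with a long one.

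Shares of the band-named counts did not overlap between the groups for 10 of the 88 tested clusters, 7 lower and 3 higher in ethanol. Divided by the same band-named counts, 3.22% of all tested features did not overlap. The rates are not comparable, since this division takes the shared shift out of the clusters and puts it into features of other classes. The 3 higher ones differed little. 9-qA5.3-24188 held 6.24% ± 0.0786 in ethanol and 6.05% ± 0.131 in control, 15-qD1-17920 1.54% ± 0.0216 in ethanol and 1.49% ± 0.0151 in control, and 9-qA5.3-1495 0.159% in ethanol and 0.152% in control. The lower ones were 19-qC2-1361, 10-qC1-875, 13-qA5-464, 13-qA5-208, 13-qA5-703, 7-qB5-6255 and 17-qC-59. These were listed after their values were seen, and only 19-qC2-1361 and 10-qC1-875 passed in the fit of piRNA clusters alone.

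Several small clusters of band 13-qA5 were lower in ethanol and uneven in control. 13-qA5-464 held 0.223%, 0.234%, 0.224% and 0.215% in ethanol 1 to 4 and 0.240%, 0.273%, 0.323% and 0.318% in control 1 to 4. 13-qA5-208 held 0.0505%, 0.0532%, 0.0540% and 0.0502% in ethanol and 0.0550%, 0.0572%, 0.0796% and 0.0760% in control. 13-qA5-703 held 0.454%, 0.440%, 0.440% and 0.420% in ethanol and 0.462%, 0.497%, 0.565% and 0.556% in control. In all 3 the ethanol libraries were nearly level, below every control, and control 3 and 4 were highest. Measured against the other clusters, 13-qA5-464 had a log2 fold change of -0.37 ± 0.09, 13-qA5-208 of -0.37 ± 0.12 and 13-qA5-703 of -0.25 ± 0.06, and none of the 3 passed with all 8 libraries (adjusted p = 0.0693 for 13-qA5-464 by edgeR's quasi-likelihood test, the lowest of the 3). All 3 passed without control 1 in that fit, and in no other alternative tried. The band's other clusters, 13-qA5-156 and 13-qA5-967, had overlapping shares. The same control libraries were high in 17-qA3.3-352, the smallest of its band. It held 0.119%, 0.1203%, 0.121% and 0.116% in ethanol and 0.115%, 0.143%, 0.167% and 0.170% in control, with overlapping groups. Measured against the other clusters, its log2 fold change was -0.33 ± 0.11 (adjusted p = 0.236 by edgeR's quasi-likelihood test). It passed in 1 of 28 alternatives, with an adjusted p of 0.00229.

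**Figure D5:**
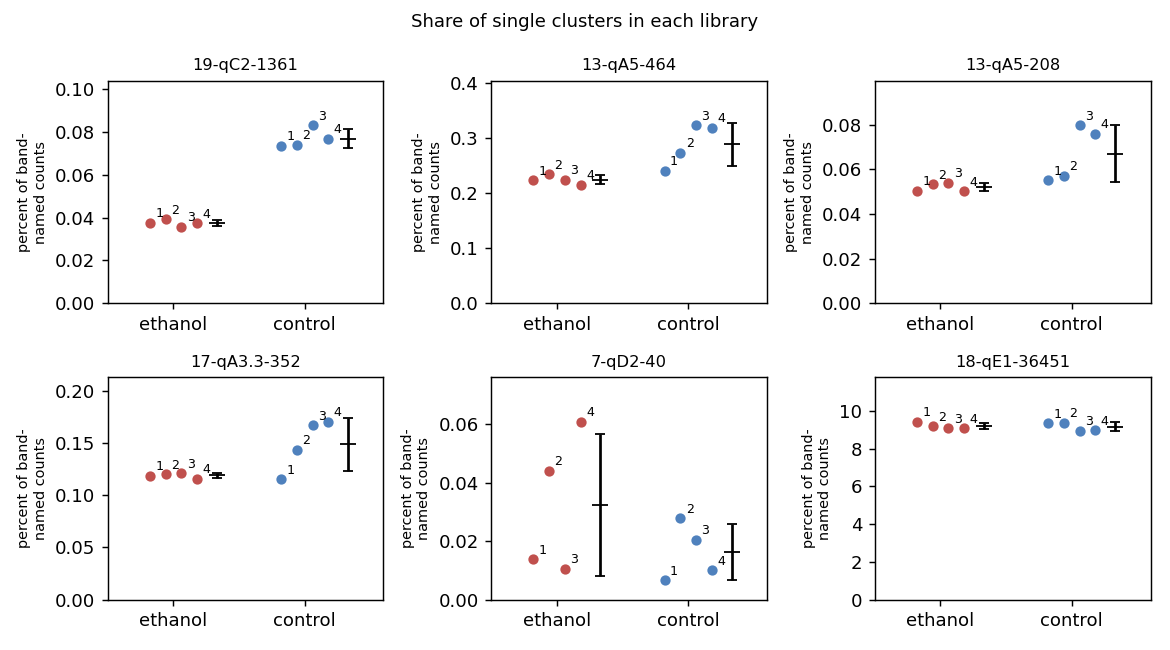
Percent of the band-named counts held by 6 clusters in each library, ethanol left and control right; points carry the replicate number and black marks give mean and SD over 4 libraries, each panel with its own axis from 0. 19-qC2-1361 is separated with little spread in either group, 13-qA5-464, 13-qA5-208 and 17-qA3.3-352 are spread over the controls, 7-qD2-40 is spread in both groups, and 18-qE1-36451 is level.

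The cluster that varied most had no steady direction. 7-qD2-40, with 1157 counts in all, had 23.1, 24.9, 30.9 and 57.3 CPM in ethanol 1 to 4 and 12.0, 29.6, 29.8 and 22.3 CPM in control 1 to 4. The groups overlapped, with ethanol 4 highest and control 1 lowest, and its level did not follow the shift of the other clusters: ethanol 4, where those were low, was its highest. The SD of its log2 share was 1.11 over the 8 libraries, the largest of the 85 clusters. Its log2 fold change was 0.54 ± 0.42 (edgeR's quasi-likelihood test, adjusted p = 0.370). The other 2 positive estimates were of 10-qC1-117 at 0.50 ± 0.54 and 13-qA5-967 at 0.27 ± 0.54 with 157 and 403 counts in all.

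Other clusters named for a small p or a large spread had few counts or a large error. 2-qE5-4 had 115 counts in all and a log2 fold change of -0.59 ± 0.41, and 17-qC-59 had 170 counts and -0.61 ± 0.49. 17-qC-59 passed only without ethanol 3, with an adjusted p of 0.0421 by edgeR's quasi-likelihood test, and its adjusted p over the other alternatives reached 0.791. 4-qB3-3994 was among the most variable in ethanol with 190.3, 48.9, 277.8 and 75.8 CPM, against 169.0, 104.4, 123.0 and 208.3 CPM in control. 8-qA4-155 was among the most variable in control, with 89.0, 31.7, 170.8 and 49.9 CPM in ethanol and 111.9, 57.4, 97.4 and 158.3 CPM in control. Both followed the library-wide shift, and neither passed.

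The 6 clusters that were not tested had few counts, 80 for 10-qA3-2592, 49 for 6-qC3-100, 20 for 13-qB1-1517, 6 for 10-qC2-545 and 1 each for 17-qC-935 and 15-qE1-3710, over all 8 libraries. At least 10 counts were found for 90, 85, 90 and 87 clusters in ethanol 1 to 4 and for 89, 86, 88 and 89 in control 1 to 4. The fewest were in ethanol 2, the library with the fewest counts on the set, 274425. Of the 94 clusters 90 had counts in every library.

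The counting left its own marks. The 94 clusters came as 190 transcript rows; 65 clusters had several, and in 26 of them rows were identical in all libraries. For 6 clusters every library had an even count (2-qE1-35981, 3-qA3-2052, 2-qG3-1029, 18-qE1-1295, 5-qG2-2301 and 10-qA3-143). That was 7.32% of the 82 band-named clusters with at least 1324 counts in all, against 0.694% of 1153 features of other classes. Divided by 2, 2-qE1-35981 would rank 11 in place of 6. The cause was not tested, and evenness in both groups follows from the rule that picked these 6 clusters.

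Genes of the piRNA pathway were at low level as mRNA fragments. Of 30 listed, 28 were in the table and 12 were tested, and 0 passed in either direction by edgeR's quasi-likelihood test (0 at an unadjusted p under 0.05, 0 in DESeq2 and 0 in limma-voom), with a median log2 fold change of -0.15. That test called 13.6% of all tested features, so 0 of 12 says little. Piwil2, which encodes the PIWI protein that binds pre-pachytene and pachytene piRNAs, had 15.5, 5.35, 26.0 and 11.0 CPM in ethanol 1 to 4 and 19.2, 11.4, 14.9 and 26.7 CPM in control 1 to 4. It was highest in ethanol 3 and control 4 and lowest in ethanol 2 and control 2, and its log2 fold change was -0.32 ± 0.45 (adjusted p = 0.647). Tdrd6, a Tudor protein of the germ cell granule, averaged 5.46 ± 3.69 CPM in ethanol and 6.34 ± 4.24 CPM in control. Of the gene-named clusters 23 were tested and 0 were called by edgeR's quasi-likelihood test, against 13.6% of all tested features. There was 1 at an unadjusted p under 0.05, 0 in DESeq2 and 0 in limma-voom, and the median log2 fold change was -0.04.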

How the data were processed

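The deposited table holds raw, whole-number counts of each annotated feature in each library; aligner, counting rule, genome build and use of molecular identifiers are not given in the sources used here. Groups and replicate numbers came from the sample titles. Rows of a gene or class member were summed to 45090 features, and each piRNA cluster was its largest transcript. The members, gene lists and tests were chosen with earlier results of these data known.

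All features were fitted with edgeR 4.0.16 in R 4.3.3 (TMM, filterByExpr with a minimum count of 10, robust quasi-likelihood test on ethanol against control, Benjamini-Hochberg over 13515 features, threshold 0.05). CPM were computed from the deposited counts with TMM library sizes. SE is the absolute log2 fold change divided by the square root of F. Alternatives were DESeq2 1.42.0, limma-voom (limma 3.58.1), other scalings, count filters, summed transcripts, a block for the replicate number, leaving out each library or pair of ethanol libraries, and piRNA clusters alone. Scaling by piRNA cluster counts, halving of even counts and leaving out libraries with clusters alone were added after seeing the data.

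Named clusters were the 10 with the highest mean CPM, up to 5 higher and 5 lower ones by smallest p (only 3 were higher), any called cluster, the 3 most variable within each group and those of the 4 largest bands; others were named after their values were seen. Of the pathway list the 2 highest genes were named. Permutation tests planned for the summed share, concentration and distances are left out, since these are scores over clusters chosen with results known. Intervals cover counting error only. Library totals as deposited were 3481865 to 6975180 counts. Shares, intervals and figures were made with pandas 2.3.3, numpy 2.4.6, matplotlib 3.10.9 and scipy 1.17.1 under Python 3.11.15.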

Additional observations from a re-analysis of the deposited data

Results flagged for a closer look

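In 4 of 118 groups of 4 libraries checked, 1 library lay apart from the other 3, with a gap to its nearest neighbour past Dixon's 95% critical share of the group's range for 4 values; chance alone would give about 1 in 20 groups. 10-qC1-117 had 2.28 CPM in control 2, from 9 counts, below the other controls. 12-qE-23911 held 3.04% of the band-named counts in ethanol 1, above the other ethanol libraries. 2-qE5-4 held 0.00291% in ethanol 2, from 8 counts, above the other ethanol libraries. The 5 largest clusters together held 35.8% in ethanol 2, below the other ethanol libraries.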

How the results depend on the processing

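Calls among the band-named clusters numbered 0 over all features and 2 with piRNA clusters alone in the fit, 1 with DESeq2 and 1 against ethanol 1 and 2 only; leaving out 1 library gave 0 to 2 over all features (2 without ethanol 3), and 1 to 7 with piRNA clusters alone (7 without control 1). With the replicate number as a block there was 1 call, 19-qC2-1361 (adjusted p = 0.0358), and 3298 calls over all features against 1841. Whether the numbers pair the libraries is not stated. Same-numbered deviations correlated at 0.341, 0.209, -0.127 and -0.0201, which cannot decide it, since differently numbered libraries were not compared. No sign flips were run on the summed share. Calls over all features were 3144 with DESeq2, 1200 with DESeq2 size factors, 8 with limma-voom, 3451 with no count filter, 245 with a minimum count of 50 and 0 when scaled by piRNA cluster counts, where the median of all features was 0.38. They were 3 to 10 without a control, and 2418, 1372, 3575 and 1044 without ethanol 1 to 4. The share of library counts differed by 0.803 points as means and by -0.0415 as log2 values. The distance between libraries, ethanol minus control, was 0.738 in CPM and -0.0392 after centring. The centred value also holds movement of the centre, which rests on a few clusters of middle rank. Its sign is therefore not read as a difference in composition. Of 27 named clusters 15 changed sign against ethanol 3 and 4 only, 14 each with library totals, without ethanol 2 and without ethanol 4, 13 with a minimum count of 50, and 8 or fewer under each other alternative. None of the called values reversed. Depth limited clusters under 10 counts per library.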
